A study of Danio rerio with 12 samples.

Results

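The genes described are the chemokines and chemokine receptors of the zebrafish liver. They are the rows of the deposited count table whose gene name begins with ccl, cxcl, ccr, cxcr, ackr or xcr followed by a digit. The rule found 75 of the 34028 genes in the table. They are 33 CC ligands, 16 CXC ligands, 12 CC receptors, 8 CXC receptors, 2 XC receptors and 4 atypical receptors.

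The livers came from zebrafish of a krasV12 transgenic line, which carries a mutant form of the Ras oncogene, at 3 months of age. The fish were exposed to the solvent DMSO, to TDCIPP, to DOX, or to TDCIPP together with DOX (TDCIPP+DOX), and each of these 4 groups has 3 RNA-seq libraries. TDCIPP is a chlorinated organophosphate used as a flame retardant, and the series is about liver tumours and inflammation in fish exposed to it. All groups, the DMSO controls included, carry the transgene. The labels spell out neither DOX nor the promoter that drives the transgene, and they give no dose, length of exposure, sex or batch. The labels do not say whether replicate libraries hold different fish. The p-values thus measure spread from library to library alone, and that may be technical.

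Chemokines are small secreted proteins that guide moving cells along a gradient. Most act through receptors coupled to the G protein Gi on leukocytes, where they start the actin rearrangement and integrin activation that carry the cell into tissue. Atypical receptors bind chemokines without coupling to G proteins and take the ligand up, which lowers its level outside the cell. In an injured or tumour-bearing liver, ligands come from hepatocytes, endothelium and resident macrophages as well as from arriving leukocytes. Fish have large families of CC ligands in gene clusters that have no direct counterpart in mammals.

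The libraries held 28621536 to 40877342 reads assigned to genes, of which 3618 to 24473 fell on the 75 genes. The hepatocyte markers were the highest of the marker lists in every library, with a summed level of 66373 to 128391 CPM, the reads of a gene scaled to library size by TMM. Of the 75 genes, 56 passed the filter on low counts and were tested among 19160 genes. The other 19 held 1 to 94 reads over all 12 libraries. The filter asks for reads in as many libraries as a group has, whichever they are. A gene with few reads in DMSO and DOX could pass through libraries with TDCIPP alone. Such a gene could then hardly be lower with TDCIPP. All genes tested passed the same filter. Libraries differed in transcripts of other tissues. DOX replicate 3 had a summed oocyte marker level of 2092.91 CPM against at most 215.28 elsewhere. The third library of DMSO, the first of TDCIPP and the third of TDCIPP+DOX held intestine transcripts. In these 3 the intestinal fatty acid binding protein fabp2 stood at 55.7, 46.8 and 105.8 CPM, against at most 8.73 elsewhere. Results called are given again without these 4 libraries, termed mixed libraries for their transcripts of other tissues. The 15 exocrine pancreas genes summed to 453.1 to 2532.9 CPM in DMSO, 560.0 to 1076.5 in TDCIPP, 64.2 to 791.4 in DOX and 288.6 to 1402.6 in TDCIPP+DOX, highest in DMSO replicate 3. In TDCIPP+DOX replicate 1, not among the 4, they reached 1402.6 CPM. Of these genes 0 of 15 had a log2 fold change above 0 in DOX against DMSO (median -1.87) and 15 of 15 in TDCIPP+DOX against DOX (median 1.12). Their part in the results was not tested.

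Levels of different genes were compared as the authors' FPKM, which divides by gene length. Summed over the 33 CC ligands it lay between 97.0 and 838.5 FPKM per library, and over the 16 CXC ligands between 20.6 and 226.9. The receptors were far lower, at 1.55 to 16.6 FPKM for the 12 CC receptors, 3.31 to 25.1 for the 8 CXC receptors, 0.216 to 2.18 for the 2 XC receptors and 3.16 to 30.3 for the 4 atypical receptors. Liver RNA therefore held more ligand than receptor transcript in every library by this measure. In the list of means over 12 libraries the highest were ccl39a.10 at 136.1 FPKM, ccl39.2 at 111.9, cxcl18b at 44.0, ccl34a.4 at 19.9, ccl19a.1 at 18.4 and cxcl20 at 15.4. Of the receptors, ackr4a, an atypical one, and cxcr4b, which binds Cxcl12, had the highest such means, at 7.93 and 5.78 FPKM, but their order turned with the group. The mean of cxcr4b was above that of ackr4a in DMSO (4.23 against 1.19 FPKM) and TDCIPP (6.49 against 2.42), and below it in DOX (2.21 against 8.99) and TDCIPP+DOX (10.2 against 19.1).

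The genes ccl39a.10 and ccl39.2, both on chromosome 25, together made up 11.7% of the summed FPKM in TDCIPP replicate 1 and 81.6% in DOX replicate 2. The 212-base gene model of ccl39a.10 raises its FPKM. By highest over lowest CPM it had the widest spread within a group of the genes with at least 10 reads in each library of the group. In TDCIPP+DOX it stood at 6.44, 63.6 and 0.927 CPM in replicates 1 to 3, a 68.6-fold range with a coefficient of variation of 147%. By that coefficient ccl19a.2 was wider in TDCIPP+DOX, at 162%. By contrast cxcl20 kept a median coefficient of variation of 16.4% over the 4 groups, and cxcl8a one of 14.95%. Their highest values were 23.9% and 58.1%, both in DOX, where cxcl8a had a 4.17-fold range.

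**Figure D1:**
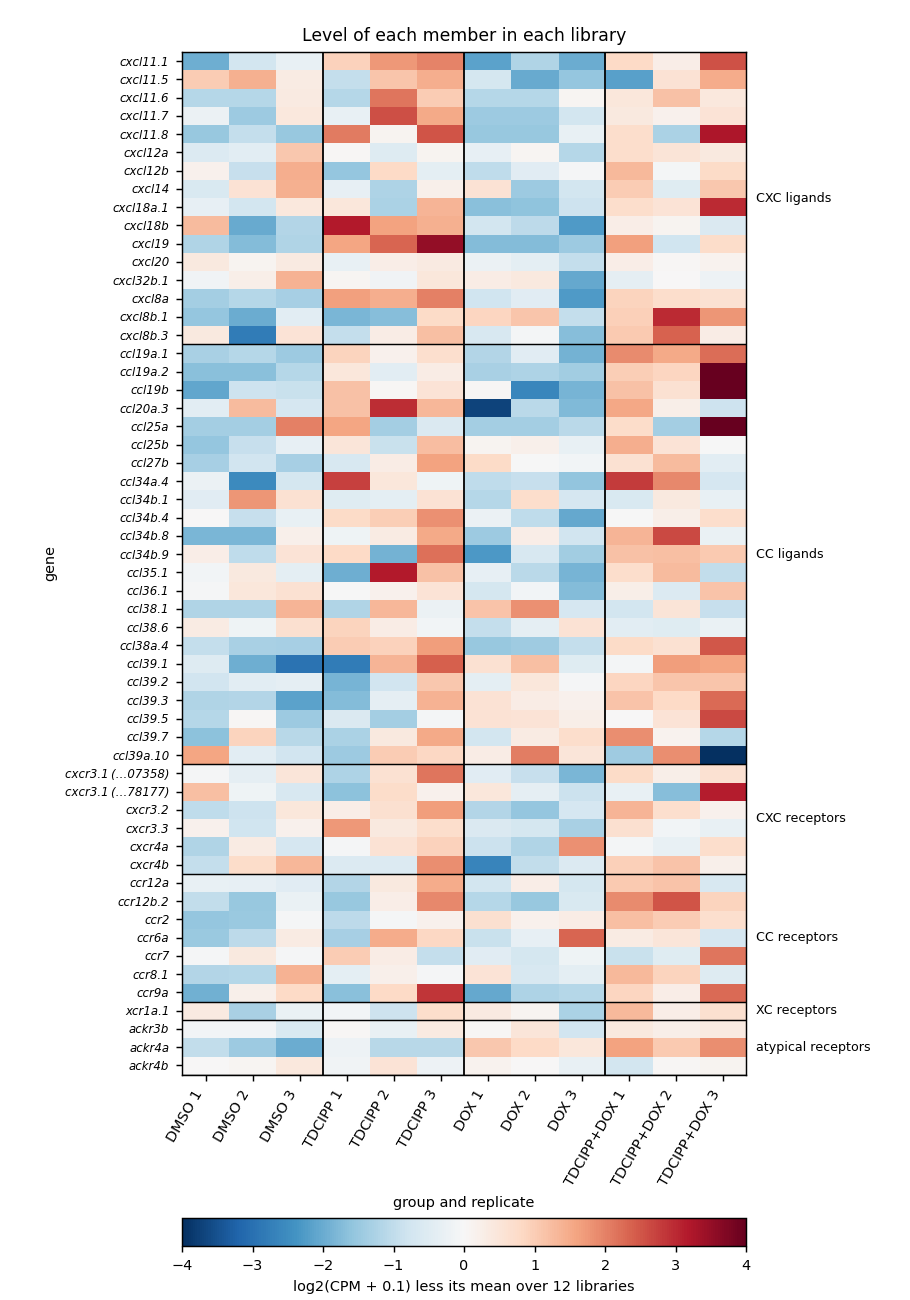
Level of the 56 genes tested in the 12 libraries, as log2(CPM + 0.1) less the gene's mean over libraries, with genes grouped by role (rows) and libraries by group (columns). Colours end at 4 on the log2 scale in either direction; many ligands are red in the TDCIPP and TDCIPP+DOX columns and blue in the DMSO and DOX columns, and ackr4a is red in the DOX and TDCIPP+DOX columns.

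Names and positions set limits on single genes. The table names 2 rows cxcr3.1, of which ENSDARG00000078177 carries immunoglobulin domain annotation and a clone symbol in the reference. Another 4 rows have a family symbol in the reference but another name in the table, among them the neutrophil receptor cxcr1, and they are outside the rule. Tandem duplicates such as the ccl34, ccl38, ccl39 and cxcl11 genes may share reads, and 9 of the 75 genes overlap another of the 75 on the same strand. The span of ccl19a.2 (chromosome 5, 13373593 to 13376424) lies inside that of ccl19a.1 (13353866 to 13392962). Likewise ccl39.1 lies inside ccl39.2, and ccl38a.4 and ccl38a.5 lie inside ccl38.6. Positions are those of the authors' table, whose genome build is not given in the sources used here.

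TDCIPP was compared with its solvent in the absence of DOX. No chemokine or receptor gene passed the threshold, an adjusted p of 0.05 in edgeR's quasi-likelihood test with Benjamini-Hochberg adjustment over all genes tested. Of all genes 0.0418% did, 0.0104% higher and 0.0313% lower. Without adjustment, at p under 0.05, 15 of the 56 genes were higher in TDCIPP (26.8%) and 0 lower, against 6% and 4.02% of all genes. DESeq2 called 4 higher (ccl19a.1, ccl38a.4, cxcl19 and cxcl8a) and 0 lower, against 1.34% and 0.93% of all genes. In 13 genes every TDCIPP library stood above every DMSO library, and in 0 every one stood below, against 10.4% and 8.95% of all genes. The median log2 fold change was 1.13 in the 56 genes and 0.02 over all genes.

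The gene with the smallest p was cxcl8a on chromosome 1 (14253118 to 14254166), the zebrafish counterpart of interleukin 8, which attracts neutrophils. It stood at 0.726, 0.873 and 0.762 CPM in DMSO replicates 1 to 3 and at 6.62, 5.83 and 8.51 CPM in TDCIPP. The groups did not overlap, and the lowest TDCIPP library held 168 reads against at most 18 in a DMSO library. The log2 fold change was 3.15 ± 0.47 (SE), 8.85-fold, with an edgeR adjusted p of 0.059 and a DESeq2 adjusted p of 1.76e-07. It passed with library totals in place of TMM (adjusted p = 0.0279). In fits without 1 library the edgeR adjusted p ran from 0.00357, without DOX replicate 3, to 0.3. The fold change barely moved, at 2.98 to 3.26 on the log2 scale. In bulk RNA, more of a cell type and more transcript per cell cannot be told apart.

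Another CXC ligand of neutrophils in zebrafish, cxcl18b, had the highest mean FPKM over the 12 libraries of the CXC ligands. In DMSO replicates 2 and 3 and DOX replicate 3 cxcl20 was above it per length, at 10.8, 11.9 and 11.5 FPKM against 4.22, 7.08 and 7.89. The gene cxcl18b stood at 66.2, 6.74 and 12.2 CPM in DMSO and at 249.6, 84.6 and 74.2 CPM in TDCIPP. All TDCIPP libraries were above all DMSO libraries, with DMSO replicate 1 close to the lowest of them. The edgeR log2 fold change was 2.26 ± 0.80 (adjusted p = 0.353), and 1.13 without the 4 mixed libraries. The gene cxcl19 stood at 0.045, 0 and 0.045 CPM in DMSO and at 0.889, 1.56 and 3.68 CPM in TDCIPP. Over the groups this was 225 reads against 2, a ratio of 71.3 after scaling (95% interval 19.5 to 593, counting error only). Its edgeR adjusted p was 0.144. It passed the filter on low counts through libraries with TDCIPP, so its direction was partly set by the filter.

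The cxcl11 genes code for ligands of Cxcr3. Of these cxcl11.1 stood at 0.045, 0.242 and 0.358 CPM in DMSO and at 0.981, 1.77 and 2.15 in TDCIPP, with no overlap (edgeR adjusted p = 0.289). This gene too passed the filter through libraries with TDCIPP. The ligand cxcl12a, which guides cells that carry Cxcr4, overlapped between the groups, at 7.80 to 24.5 CPM in DMSO and 8.12 to 12.3 in TDCIPP. The same was true of cxcl20, at 32.8 to 39.8 CPM in DMSO and 24.9 to 38.97 in TDCIPP. In all, 10 of the 16 CXC ligands had a log2 fold change above 0, a share near that of all genes (9876 of 19160). Without overlap 5 of the 16 were higher, against 10.4% of all genes. By unadjusted p under 0.05, 5 were higher, against 6%, and 0 were lower by either measure.

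Among the CC ligands 19 of the 23 tested had a log2 fold change above 0, against the same 9876 of 19160 genes. Of these 23, 7 were higher without overlap and 8 by unadjusted p under 0.05, against 10.4% and 6% of all genes. The leading one was ccl19a.1, a counterpart of mammalian CCL19, which in mammals draws dendritic cells and T cells that carry CCR7. It stood at 3.86, 4.36 and 3.50 CPM in DMSO and at 17.9, 10.9 and 15.5 CPM in TDCIPP, again with no overlap. The log2 fold change was 1.92 ± 0.36 (edgeR adjusted p = 0.109; DESeq2 7.87e-04). The gene ccl38a.4, one of the fish CC ligands, stood at 0.091, 0.048 and 0.045 CPM in DMSO and at 0.644, 0.59 and 1.07 in TDCIPP. These were 1 or 2 reads per DMSO library against 17 to 44, with an edgeR adjusted p of 0.202. As ccl38a.4 passed the filter on low counts through libraries with TDCIPP, its direction was partly set by the filter. Also without overlap were ccl34a.4, at 0.727 to 3.95 CPM in DMSO and 4.14 to 31.6 in TDCIPP, and ccl34b.4, at 1.07 to 2.13 and 3.62 to 7.71 CPM (adjusted p = 0.4 and 0.294). The ligand ccl25b, named for mammalian CCL25, overlapped, at 4.72, 7.32 and 11.07 CPM in DMSO and 19.4, 7.42 and 32.5 in TDCIPP.

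Of the receptors, 6 of the 7 CC and 5 of the 6 CXC receptors tested had a log2 fold change above 0, against 9876 of 19160 genes. By unadjusted p under 0.05, 0 CC and 2 CXC receptors were higher, against 6% of all genes. Without overlap 0 of the 7 CC receptors and 1 of the 6 CXC receptors were higher, against 10.4% of all genes. That gene, cxcr3.3, codes for a receptor that in zebrafish binds Cxcl11 ligands without usual signalling. It stood at 9.35, 4.80 and 9.32 CPM in DMSO and at 27.9, 10.9 and 13.6 in TDCIPP (edgeR adjusted p = 0.363). The macrophage receptor cxcr3.2 overlapped, at 1.27 to 3.63 CPM in DMSO and 3.19 to 8.66 in TDCIPP. The neutrophil receptor cxcr1, which binds Cxcl8, is outside the rule. Its level was 0, 0.097 and 0.224 CPM in DMSO and 0.276, 0.52 and 3.93 CPM in TDCIPP (edgeR adjusted p = 0.357). Another receptor of Cxcl8, cxcr2, was not tested, with 48 reads over all libraries, of which TDCIPP replicate 3 and TDCIPP+DOX replicate 2 held 14 each.

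**Figure D2:**
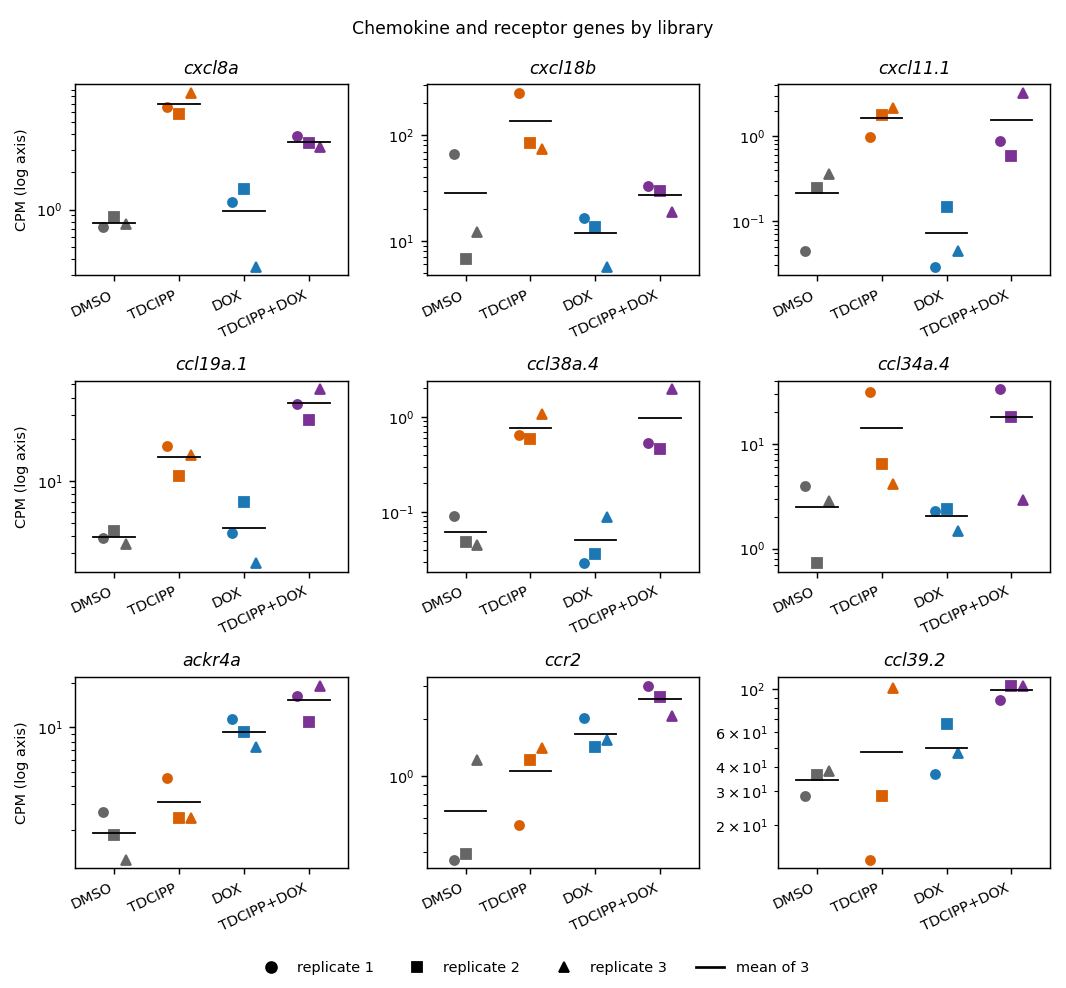
CPM on log axes of 9 chemokine and receptor genes, with 1 point per library, symbols by replicate and lines at the mean of 3 libraries. The genes cxcl8a and ccl19a.1 separate both TDCIPP groups from DMSO and DOX, whereas ackr4a separates both DOX groups from DMSO and TDCIPP.

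With DOX present, TDCIPP was compared with DOX alone, and none of these 6 libraries is in the groups compared above. The model of 12 libraries shares its filter, scaling and estimate of spread, so the p-values of these comparisons are not independent. 4 genes rose, ccl19a.1, ccl38a.4, ccl19a.2 and cxcl11.1, and 0 fell (7.14% of the 56 genes called higher, against 0.71% of all genes called higher, 1.39% lower and 2.1% in all; edgeR). In the 12 fits without 1 library these calls held 9, 2, 1 and 0 times, in that order of genes. Of the genes called, ccl38a.4, ccl19a.2 and cxcl11.1 held at most 4 reads in any DOX library. They passed the filter on low counts through libraries with TDCIPP, so their direction was partly set by the filter. At an unadjusted p under 0.05, 23 of the 56 were higher and 0 lower, against 10.4% and 14% of all genes. DESeq2 called 12 higher and 0 lower, against 5.66% and 7.41% of all genes. The groups did not overlap in 27 genes, all higher in TDCIPP+DOX, against 13.5% of all genes higher and 13.6% lower without overlap. The median log2 fold change was 1.37 in the 56 genes and -0.08 over all genes.

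The CC ligand ccl19a.1 stood at 4.18, 7.08 and 2.54 CPM in DOX replicates 1 to 3 and at 36.2, 27.6 and 45.9 CPM in TDCIPP+DOX. The lowest TDCIPP+DOX library was well above the highest DOX library. The log2 fold change was 3.00 ± 0.37, 7.97-fold (edgeR adjusted p = 0.0176), and 2.52 without the 4 mixed libraries (adjusted p = 0.0402). The call was lost in the fit of the 6 libraries alone (adjusted p = 0.122) and without any 1 of the TDCIPP+DOX libraries (adjusted p up to 0.0692). In each of these fits 0 of all genes tested were called. The other calls were lost without the 4 mixed libraries (adjusted p of 0.101 to 0.134). The fitted log2 fold change was then 3.80 for ccl38a.4 against 4.11 with them, and 3.09 for cxcl11.1 against 4.42. For ccl19a.2 that left 26 and 27 reads in TDCIPP+DOX against 1 and 1 in DOX.

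The ligand ccl38a.4 stood at 0.029, 0.036 and 0.088 CPM in DOX and at 0.525, 0.462 and 1.94 in TDCIPP+DOX (edgeR log2 fold change 4.11 ± 0.81, adjusted p = 0.0401). The ligand cxcl11.1 stood at 0.029, 0.146 and 0.044 CPM and at 0.888, 0.586 and 3.21 CPM (4.42 ± 0.96, adjusted p = 0.0464). In both genes TDCIPP+DOX replicate 3 was the highest library, and the groups did not overlap. The gene ccl19a.2, which lies inside ccl19a.1, stood at 0.029, 0.036 and 0.022 CPM in DOX and at 0.525, 0.48 and 22.8 in TDCIPP+DOX. Over the groups this was 1113 reads against 3, a ratio of 261 (95% interval 89.2 to 1270, counting error only; edgeR adjusted p = 0.0451). Of these reads 1060 were in TDCIPP+DOX replicate 3.

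The neutrophil ligand cxcl8a stood at 1.14, 1.46 and 0.35 CPM in DOX and at 3.86, 3.38 and 3.17 CPM in TDCIPP+DOX, with no overlap. Its log2 fold change was 1.83 ± 0.44 (edgeR adjusted p = 0.0563), and it passed with library totals in place of TMM (adjusted p = 0.0416). Levels of cxcl18b were 16.5, 13.4 and 5.71 CPM in DOX and 33.2, 29.9 and 18.6 CPM in TDCIPP+DOX. These groups did not overlap either. For cxcl19 the reads were 72 against 1, with 46 of the 72 in TDCIPP+DOX replicate 1 and 5 in replicate 2 (edgeR adjusted p = 0.0524). Here too its direction was partly set by the filter.

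Receptors were higher without overlap in 4 of the 6 CXC receptors and 3 of the 7 CC receptors tested, against 13.5% of all genes, and 0 of them passed edgeR's threshold. By unadjusted p, 3 CXC and 2 CC receptors were higher, and DESeq2 called 1 of each, against 10.4% and 5.66% of all genes. The receptor cxcr3.2, which in zebrafish guides macrophages to Cxcl11, stood at 1.11, 0.839 and 1.62 CPM in DOX and at 7.01, 4.30 and 3.02 in TDCIPP+DOX (adjusted p = 0.0757; DESeq2 0.00731). The Cxcl12 receptor cxcr4b stood at 0.994 to 4.55 CPM in DOX and 7.78 to 15.1 CPM in TDCIPP+DOX (adjusted p = 0.159). The gene ccr9a, whose mammalian counterpart binds CCL25, stood at 0.497 to 1.03 CPM and at 2.90 to 11.8 CPM (adjusted p = 0.132). In ccr2, a receptor that brings monocytes from the marrow in mammals, the ranges were 1.42 to 2.02 and 2.07 to 2.99 CPM, a narrow gap without overlap.

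**Figure D3:**
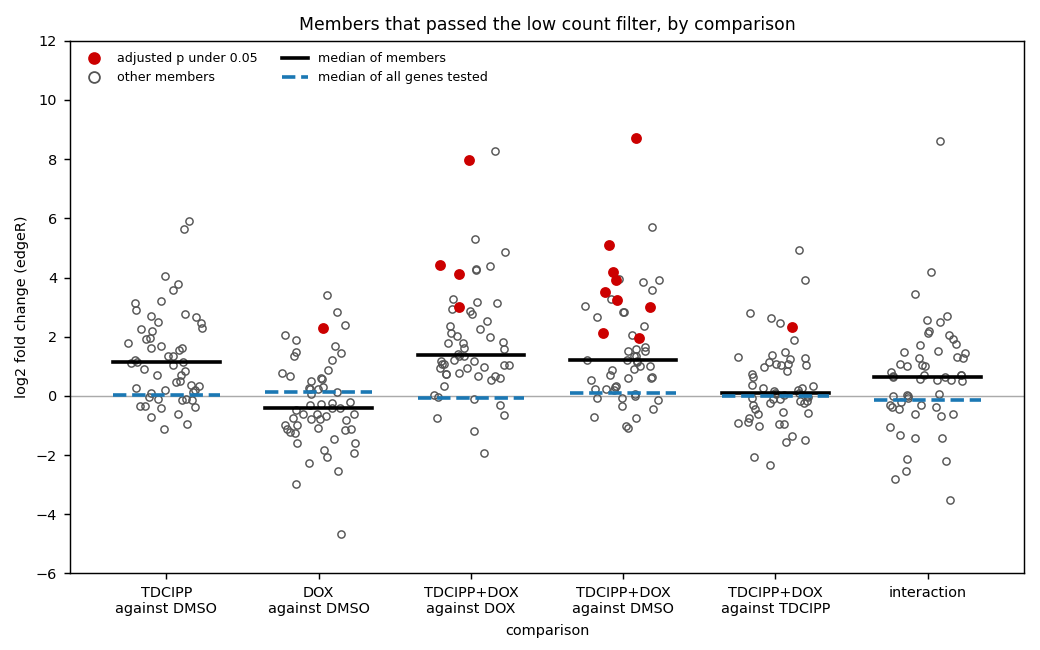
The edgeR log2 fold changes of the 56 genes tested, by comparison, with genes past an adjusted p of 0.05 in red, the median of the 56 as a solid line and that of all genes tested as a dashed line. The solid line lies above 1 in the 3 comparisons of a TDCIPP group with a group without TDCIPP, and the fitted values above 5 belong to cxcl19, cxcl11.8, ccl19a.2, ccl19b and ccl25a, which have few reads in the lower group.

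The group means of the TDCIPP comparisons without and with DOX share no library, so their values can be set side by side. Of the 56 genes, 39 were higher with TDCIPP in both (69.6%), against 26.6% of all genes tested. Lower in both were 3 (ackr4b, ccl39a.10 and cxcl32b.1), higher only without DOX were 4 (ccl38.1, ccl38.6, ccr6a and cxcr4a), and higher only with DOX were 10. By mean FPKM none of those 3 was lower in both, so that direction rests on the scaling. By that measure ackr4b was higher with TDCIPP in both. In TDCIPP ccl39a.10 was above DMSO (102.9 against 86.9 FPKM), and in TDCIPP+DOX cxcl32b.1 was above DOX (0.473 against 0.341). Across the 56 genes Pearson's r between the log2 fold changes was 0.45 and Spearman's rho 0.443, against 0.061 and 0.087 across all genes. Genes are not independent replicates, and the tandem copies share sequence, so these are descriptions. Genes with few reads in DMSO and DOX, such as cxcl19 and cxcl11.8, passed the filter on low counts through libraries with TDCIPP. Their direction in both comparisons was partly set by the filter, so the 69.6% and the correlations are no test. In 11 genes the libraries did not overlap in either comparison and TDCIPP was higher in both (19.6% of the 56, against 2.38% of all genes). They are the ligands ccl19a.1, ccl19a.2, ccl19b, ccl34a.4, ccl34b.4, ccl38a.4, cxcl8a, cxcl11.1, cxcl18b and cxcl19 and the receptor cxcr3.3. Of these, ccl19a.2, ccl38a.4, cxcl11.1 and cxcl19 held at most 8 reads in any library without TDCIPP. The gene ccl19b held 18 reads in DOX replicate 1 and at most 5 in the other libraries without TDCIPP. All of these passed the filter on low counts through libraries with TDCIPP. Their direction was thus partly set by the filter, and the share is no test.

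**Figure D4:**
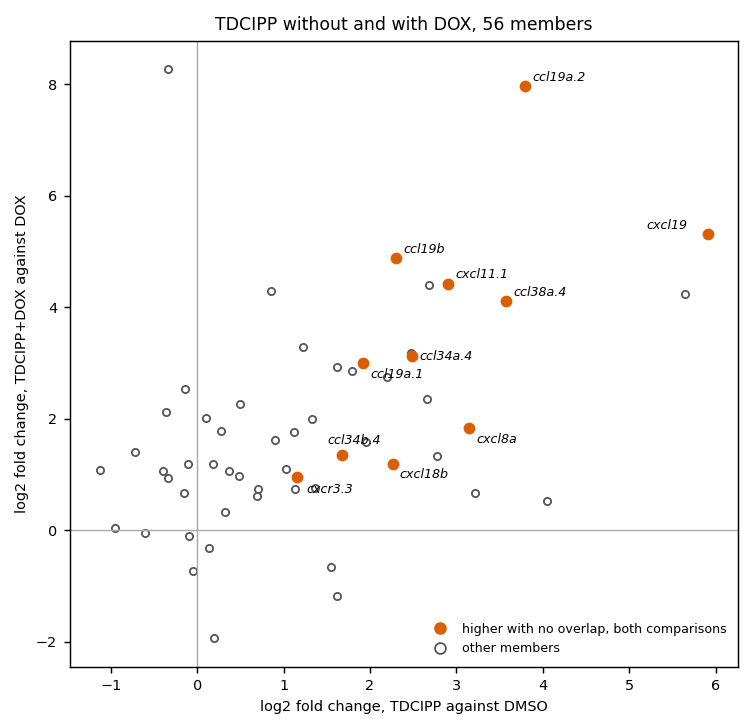
The edgeR log2 fold change of TDCIPP against DMSO (x axis) and of TDCIPP+DOX against DOX (y axis) for the 56 genes tested, 1 point per gene, with the 11 genes higher without overlap in both comparisons filled and named. Most points, 39 of 56, lie above 0 on both axes, and the uppermost points are ccl25a and ccl19a.2, with 1 and 3 reads in the DOX group.

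The size of the response to TDCIPP with and without DOX was compared by the interaction term. No gene of the 56 passed, and 0.0261% of all genes did, 0.0157% higher and 0.0104% lower (edgeR). The unadjusted p was under 0.05 for 3 higher (cxcl20, ccl25a and cxcl18a.1) and 0 lower, against 5.51% and 7.32% of all genes. DESeq2 called 0, against 1.09% and 0.518% of all genes. For ccl19a.1 the response was larger with DOX by 1.07 ± 0.49 on the log2 scale (adjusted p = 0.389). For cxcl8a it was smaller, with a difference of -1.32 ± 0.62 (adjusted p = 0.39). The standard errors are large, so these data do not show whether the responses are alike.

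DOX alone was compared with DMSO. The atypical receptor ackr4a rose, and it was the only call among the 56 genes (1.79%, against 3.93% of all genes called higher, 2.93% lower and 6.86% in all; edgeR). In mammals this receptor takes up CCL19, CCL21 and CCL25. By unadjusted p, 4 genes were higher and 4 lower, against 16.3% and 10.4% of all genes. DESeq2 called ackr4a higher and cxcl20 lower, against 9.01% and 7.29% of all genes. In 7 genes every DOX library was above every DMSO library and in 7 below, against 13.7% and 12.3% of all genes. The median log2 fold change of the 56 genes was -0.42 against 0.12 over all genes, but 0.34 against 0.83 with library totals in place of TMM, so its sign rests on the scaling. Without the 4 mixed libraries it was 0.

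The receptor ackr4a (chromosome 2, 31671545 to 31674403) stood at 2.63, 1.84 and 1.25 CPM in DMSO and at 11.3, 9.23 and 7.31 CPM in DOX. Its lowest DOX library was well above its highest DMSO library. The log2 fold change was 2.28 ± 0.38, 4.86-fold (edgeR adjusted p = 0.0104), and 2.22 without the 4 mixed libraries (adjusted p = 0.0162). It passed without any 1 of the 12 libraries (adjusted p up to 0.0486) and not in the fit of the 6 libraries alone (adjusted p = 0.0558). Its paralogue ackr4b overlapped between the groups, at 6.49 to 8.60 CPM in DMSO and 5.17 to 7.11 in DOX. So did ackr3b, a receptor that takes up Cxcl12 in zebrafish, at 2.87 to 4.08 and 2.56 to 6.17 CPM. By the authors' FPKM neither overlapped, and both were higher in DOX. There ackr4b stood at 1.27 to 1.49 in DMSO and 1.65 to 2.13 in DOX, and ackr3b at 0.94 to 1.61 and 1.99 to 2.98. The overlap of these genes thus rests on the scaling.

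Among the CXC ligands cxcl20 stood at 39.8, 32.8 and 38.9 CPM in DMSO and 25.7, 23.1 and 15.7 in DOX. Its groups did not overlap, and the log2 fold change was -0.79 ± 0.23 (edgeR adjusted p = 0.0624) and -0.14 with library totals. The DOX libraries of cxcl8a, at 0.35 to 1.46 CPM, spanned its DMSO values, and so did those of ccl19a.1, at 2.54 to 7.08 CPM. Higher without overlap was ccr2, at 0.363, 0.388 and 1.21 CPM in DMSO and 2.02, 1.42 and 1.55 in DOX (adjusted p = 0.151, and 0.0425 without the 4 mixed libraries). So was ccl25b, at 15.1, 15.9 and 11.4 CPM in DOX (adjusted p = 0.295).

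TDCIPP+DOX was also compared with DMSO, which shares its controls with the TDCIPP and DOX comparisons above. 9 of the 56 genes rose and 0 fell (16.1%, against 5.33% of all genes called higher, 6.37% lower and 11.7% in all; edgeR). At an unadjusted p under 0.05, 22 were higher and 0 lower, against 14.1% and 12.9% of all genes. DESeq2 called 17 higher and 0 lower, against 8.76% and 10.1%. The 9 are the ligands ccl19a.1, ccl19a.2, ccl19b, ccl38a.4, ccl39.3, cxcl8a and cxcl8b.1 and the receptors ackr4a and ccr2. Of these, ccl19a.2, ccl19b, ccl38a.4 and ccl39.3 held at most 5 reads in any DMSO library. They passed the filter on low counts through libraries of the other groups, so their direction was partly set by the filter. Groups did not overlap in 20 genes that were higher and 1 that was lower (ccl38.6), against 21.2% and 18% of all genes, and the median log2 fold change was 1.21 against 0.1. By the authors' FPKM ccl38.6 overlapped, at 1.02 to 1.76 in DMSO and 1.65 to 1.98 in TDCIPP+DOX, so its direction rests on the scaling. Calls of ccl19a.1, ackr4a, cxcl8a, ccl19a.2, cxcl8b.1 and ccr2 held without the 4 mixed libraries, and those of ccl38a.4, ccl19b and ccl39.3 did not (adjusted p of 0.0864, 0.211 and 0.0786). With library totals 30 genes were called, all higher, where the median of all genes was 1.11.

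The smallest p was that of ccl19a.1, which was 9.36-fold higher, 3.23 ± 0.38 on the log2 scale (edgeR adjusted p = 0.0018). Without the 4 mixed libraries that value was 3.00. The receptor ackr4a, at 16.3, 10.9 and 19.2 CPM in TDCIPP+DOX, was higher by 3.02 ± 0.39 (adjusted p = 0.00193). The neutrophil ligand cxcl8a was 4.39-fold higher (2.14 ± 0.45, adjusted p = 0.0123). These 2 ligands and the receptor kept their call in 11 or 12 of 12 fits without 1 library.

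The second copy of the interleukin 8 family, cxcl8b.1, had another pattern from cxcl8a. It stood at 0.363, 0.242 and 0.896 CPM in DMSO, 0.276, 0.312 and 2.195 in TDCIPP, 2.31, 2.77 and 0.591 in DOX, and 2.48, 10.4 and 4.48 in TDCIPP+DOX. The TDCIPP+DOX libraries were above all DMSO libraries, and the TDCIPP group overlapped DMSO. The log2 fold change of TDCIPP+DOX against DMSO was 3.52 ± 0.98 (edgeR adjusted p = 0.0405, called in 5 of 12 fits without 1 library). The receptor ccr2 stood at 2.99, 2.61 and 2.07 CPM in TDCIPP+DOX, above all DMSO libraries (1.96 ± 0.55, adjusted p = 0.042, called in 3 of 12 such fits). The ligand ccl39.3 stood at 0 to 0.097 CPM in DMSO and 0.657 to 2.004 in TDCIPP+DOX (adjusted p = 0.046, called in 3 of 12).

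The ligands ccl39.1 and ccl39.2, whose spans overlap, were not called by edgeR here. The abundant ccl39.2 stood at 28.2, 36.0 and 37.99 CPM in DMSO and at 87.6, 104.0 and 103.9 in TDCIPP+DOX, with no overlap (log2 fold change 1.53 ± 0.57, edgeR adjusted p = 0.105; DESeq2 0.0487). Its DOX libraries, at 36.7, 66.6 and 46.9 CPM, were all below those of TDCIPP+DOX. In TDCIPP it ran from 13.3 CPM in replicate 1 to 101.4 in replicate 3, which takes in the DMSO and DOX ranges and overlaps that of TDCIPP+DOX.

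TDCIPP+DOX was compared with TDCIPP, whose libraries also enter the comparisons above. The receptor ackr4a rose and no other gene passed (1.79% of the 56, against 2.03% of all genes called higher, 2.16% lower and 4.18% in all; edgeR). It stood at 4.54, 2.39 and 2.39 CPM in TDCIPP, and its log2 fold change was 2.32 ± 0.37 (adjusted p = 0.00947). Without the 4 mixed libraries it was 2.53 (adjusted p = 0.0126). The call was lost without TDCIPP replicate 2 or without replicate 3 (adjusted p up to 0.0577). By unadjusted p, 7 genes were higher and 4 lower (cxcl18b, cxcl8a, cxcl19 and cxcr3.3), against 9.36% and 8.59% of all genes. DESeq2 called ackr4a, ccl19a.1 and cxcl8b.1 higher and cxcl18b lower, against 4.57% and 4.49%. The groups did not overlap in 7 genes higher and 4 lower (cxcl18b, cxcl8a, ccl34b.4 and ccl38.6), against 14.7% and 15.4% of all genes. By the authors' FPKM the groups overlapped for cxcl8a, ccl34b.4 and ccl38.6. For cxcl18b the log2 fold change was -2.32 ± 0.80 (edgeR adjusted p = 0.142), and for cxcl8a -1.01 ± 0.42 (adjusted p = 0.236).

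Taking the 4 groups in order of mean level, ackr4a went from DMSO (1.91 ± 0.69 CPM, SD, n = 3) to TDCIPP (3.11 ± 1.24), DOX (9.30 ± 2.02) and TDCIPP+DOX (15.5 ± 4.2). The neighbours DMSO and TDCIPP overlapped, as their ranges of 1.25 to 2.63 and 2.39 to 4.54 CPM show, and so did DOX and TDCIPP+DOX. For ccl19a.1 the order was DMSO (3.91 ± 0.44 CPM), DOX (4.6 ± 2.3), TDCIPP (14.8 ± 3.6) and TDCIPP+DOX (36.6 ± 9.2). DMSO and DOX overlapped and no other neighbours did. For cxcl8a it was DMSO (0.787 ± 0.077 CPM), DOX (0.984 ± 0.571), TDCIPP+DOX (3.47 ± 0.35) and TDCIPP (6.99 ± 1.38), again with overlap of DMSO and DOX alone. These overlaps are by CPM and rest on the scaling. By the authors' FPKM cxcl8a overlapped between TDCIPP (6.69 to 11.9) and TDCIPP+DOX (6.22 to 7.84). By that measure ackr4a did not overlap between DOX (7.59 to 9.71) and TDCIPP+DOX (13.2 to 23.5). Nor did ccl19a.1 between DMSO (2.26 to 3.04) and DOX (3.90 to 6.75). The ligand ccl19a.1 and the receptor ackr4a, whose mammalian counterparts bind each other, both had their highest mean in TDCIPP+DOX.

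The level of 1 CC ligand was highest in the 3 libraries with intestine transcripts. The gene ccl25a, whose mammalian counterpart is made by thymus and small intestine, stood at 0.941, 0.674 and 11.2 CPM in the DMSO, TDCIPP and TDCIPP+DOX libraries with the most fabp2. It was at 0.323 CPM in TDCIPP+DOX replicate 1 and at most 0.073 in the other 8 libraries. In TDCIPP+DOX replicate 3 ccl19a.2 stood at 22.8 CPM and ccl19b at 15.7, against at most 0.525 and 1.27 CPM in any other library. In DMSO replicate 3 these genes stood at 0.045 and 0.224 CPM. In TDCIPP replicate 1 they stood at 0.337 and 1.256 CPM, the highest of that group, beside 0.139 and 0.293 for ccl19a.2 and 0.52 and 0.78 for ccl19b. Of the 75 genes, 18 had their highest level in TDCIPP+DOX replicate 3, the most of any library. The intestine markers without the liver-expressed apoa4b.1 and rbp2a, a choice made after values were seen, summed to 501.29 CPM there, 133.64 and 94.76 in the other two and 2.91 to 37.13 elsewhere. The full list of 11, most of it those 2 genes, went another way. It summed to 1146.21 CPM in TDCIPP+DOX replicate 3, below the 1243.13 to 1899.16 of the DMSO and TDCIPP libraries, and was highest in DMSO replicate 2. The part of intestine transcripts in these results was not tested. For ccl19a.1 the difference between TDCIPP+DOX and DOX was called without the mixed libraries. That fit also left out the DOX library with oocyte transcripts. The call was lost when TDCIPP+DOX replicate 3 was the only library left out. In that fit no gene tested was called in this comparison.

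**Figure D5:**
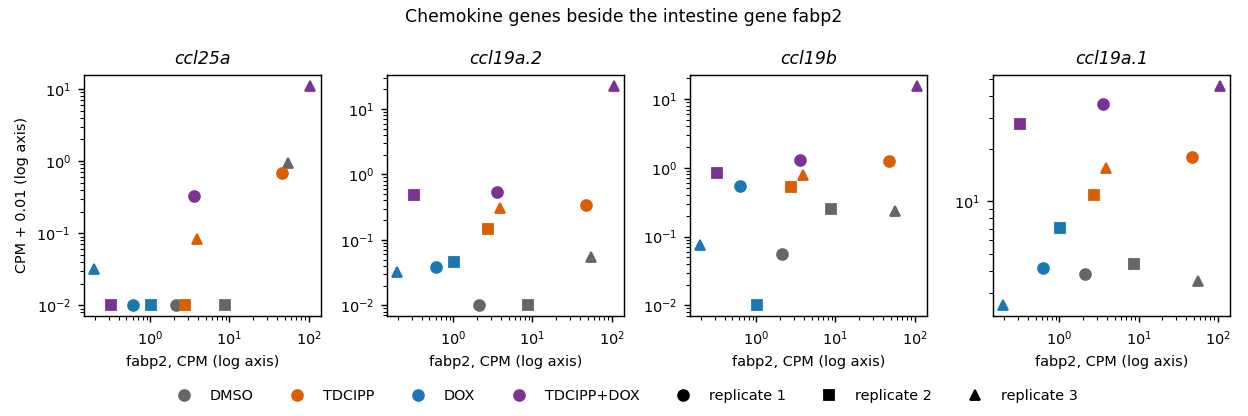
CPM + 0.01 of 4 CC ligands (y axis) against CPM of the intestine gene fabp2 (x axis) in 12 libraries, both on log axes, with colours for groups and symbols for replicates. The level of ccl25a is highest in the 3 libraries with the most fabp2, and ccl19a.2 and ccl19b peak in TDCIPP+DOX replicate 3, whereas ccl19a.1 is high in all 3 TDCIPP+DOX libraries.

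Of the leukocyte lists, the summed neutrophil markers separated the groups with TDCIPP from those without. The 13 neutrophil genes measured, among them the peroxidase mpx and NADPH oxidase subunits, summed to 52.1 to 63.0 CPM in DMSO, 136.3 to 306.0 in TDCIPP, 34.1 to 39.7 in DOX and 88.3 to 261.1 in TDCIPP+DOX. Of the 12 tested, 8 were higher without overlap in TDCIPP against DMSO and 5 in TDCIPP+DOX against DOX, against 10.4% and 13.5% of all genes. The lysozyme lyz was at 0 to 0.182 CPM in 11 libraries and 4.05 in TDCIPP replicate 3. The 20 macrophage genes summed to 331.1 to 681.2 CPM in DMSO, 651.9 to 1844.5 in TDCIPP, 401.6 to 460.4 in DOX and 610.4 to 834.2 in TDCIPP+DOX. The DMSO range overlaps those of TDCIPP and TDCIPP+DOX. Of the 20, 7 and 14 were higher without overlap in the same comparisons, beside the same shares of all genes. By edgeR's adjusted p, 0 of either list were called in TDCIPP against DMSO, against 0.0104% of all genes called higher. In TDCIPP+DOX against DOX 1 neutrophil and 2 macrophage genes rose, against 0.71%. DESeq2 called 7 neutrophil and 6 macrophage genes higher in the first comparison, against 1.34% of all genes. It called 7 and 7 higher in the second, against 5.66%, and 0 lower in either. Their part in the chemokine results was not tested.

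Lymphocyte markers were low. In both lists the TDCIPP range lies above that of DMSO, and the TDCIPP+DOX range overlaps those of DMSO and DOX. Without cd3eap, which codes for an RNA polymerase subunit and was listed in error, the 16 T and NK cell genes summed to 6.30 to 10.8 CPM in DMSO, 12.1 to 24.9 in TDCIPP, 4.52 to 16.1 in DOX and 9.04 to 30.2 in TDCIPP+DOX. The co-receptor cd8a was at 0 CPM in 8 libraries. The 11 B cell genes summed to 7.21 to 9.36, 10.2 to 54.1, 7.36 to 10.3 and 8.32 to 34.3 CPM in the same order. In TDCIPP against DMSO 7 of 7 B cell genes tested and 6 of 12 T and NK cell genes, cd3eap included, had a log2 fold change above 0. By unadjusted p under 0.05, 4 and 2 were higher, against 6% of all genes. In TDCIPP+DOX against DOX 7 of 7 and 10 of 12 were above 0, and 3 and 2 were higher by unadjusted p, against 10.4%. In these comparisons edgeR called 0 of either list. The summed level of 11 endothelial genes was 84.8 to 105.7, 74.3 to 87.8, 52.0 to 82.5 and 93.0 to 115.2 CPM. The receptor ccr7, which binds CCL19 in mammals, stood at 0.073 to 0.582 CPM in 11 libraries and at 1.38 CPM in TDCIPP+DOX replicate 3.

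Genes that relay the receptors' signal were taken from a list of 50, of which 44 were in the table and 42 were tested. In TDCIPP against DMSO 0 passed edgeR's threshold, and DESeq2 called coro1a higher (1 of 42, against 1.34% of all genes). With no adjustment, 12 had a p under 0.05 and were higher, and arrb2a was lower, against 6% and 4.02% of all genes. In TDCIPP+DOX against DOX 2 rose (4.76% of 42, against 0.71% of all genes called higher), the Src family kinase lyn (log2 fold change 2.22 ± 0.35, edgeR adjusted p = 0.0322) and the leukocyte actin regulator coro1a (1.98 ± 0.37, adjusted p = 0.0364). Without the 4 mixed libraries lyn kept its call (2.18, adjusted p = 0.0497) and coro1a lost it (2.08, adjusted p = 0.0624).

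In DOX against DMSO 3 signalling genes rose (7.14% of 42, against 3.93% of all genes called higher), the G protein subunits gng5 (0.91 ± 0.18, adjusted p = 0.0206) and gnai2a (0.73 ± 0.19, adjusted p = 0.0409) and the GTPase rac1a (1.501 ± 0.38, adjusted p = 0.0384). All 3 lost the call without the 4 mixed libraries (adjusted p of 0.0658, 0.0903 and 0.0897), where rhoab alone was called. The level of rac1a was 34.8, 28.4 and 84.0 CPM in DOX, highest in the library with oocyte transcripts, and its log2 fold change without the 4 was 0.75. In TDCIPP+DOX against DMSO 5 rose (gnai2a, coro1a, gnb1a, gnai1 and lyn; 11.9% of 42, against 5.33% of all genes) and gnai2b fell by 1.43 on the log2 scale (adjusted p = 0.0054), a call lost with library totals. Without the 4 mixed libraries these 6 kept their calls, and 14 of the list were called, 13 of them higher, against 2306 of all 19171 genes. In TDCIPP+DOX against TDCIPP gnai2b was called lower in that fit (-1.28, adjusted p = 0.027), where 844 of all 19171 genes were called. With all libraries 0 passed there. By unadjusted p gnai2a, gnb1a and arrb2a were higher and gnai2b lower (3 and 1 of 42, against 9.36% and 8.59% of all genes). DESeq2 called gnai2b lower, against 4.49% of all genes. In the interaction 0 passed, and rgs13 was higher and gng5 lower by unadjusted p, against 5.51% and 7.32% of all genes. There DESeq2 called gng5 lower, against 0.518%. With library totals 12 of the 42 were called in DOX against DMSO and 24 in TDCIPP+DOX against DMSO, all higher. Of all 19160 genes, 5033 and 7271 were called in these fits.

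The authors' deposited table holds calls of their own for 4 of these comparisons. In TDCIPP against DMSO the authors' deposited table called ccl19a.1 (adjusted p = 0.00689) and cxcl8a (adjusted p = 1.21e-05) higher. Of all genes the authors' deposited table called 27 higher and 39 lower there. In TDCIPP+DOX against DOX the authors' deposited table called ccl19a.1 (adjusted p = 0.000352) and in DOX against DMSO ackr4a (adjusted p = 0.036), both higher. Of all genes the authors' deposited table called 23 higher and 11 lower in the first and 84 higher and 110 lower in the second. In TDCIPP+DOX against DMSO the authors' deposited table called 7 of the 75 genes, all higher: ccl19a.1, ackr4a, cxcl8a, ccl39.1, ccl39.2, ccl39.3 and ccr12b.2. Of the 34028 genes the authors' deposited table called 656 higher and 700 lower there.

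The 19 genes not tested held at most 43 reads in any library. They include ccl27a and ccl44 with 1 read each in all, the lymphoid receptor cxcr5 with 12 and the fish receptor gene ccr12b.1 with 49, of which 24 and 11 were in TDCIPP+DOX replicates 1 and 2. The ligand ccl34a.3, with 94 reads, had 36 and 43 of them in TDCIPP+DOX replicates 1 and 2 and 1 in replicate 3. A neighbour in name, ccl34a.4, stood at 33.1, 17.9 and 2.91 CPM in those libraries.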

How the data were processed

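The authors aligned reads with HISAT, per the submitters' processing notes; its version, the counting program and its use of strand, like build and annotation, are not given here by any source used. Per the file headers, the deposited table holds raw read counts per gene, the authors' FPKM per library, and an adjusted p-value and call for 4 comparisons. Gene names came from the table.

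The quasi-likelihood model of edgeR 4.0.16 (R 4.3.3), with TMM scaling and its default filter by group, was fitted to the counts as 1 model over 12 libraries with a mean per group and 8 residual degrees of freedom. For the 5 comparisons and the interaction, 2-sided p-values were adjusted by Benjamini and Hochberg's method over 19160 genes, with a threshold of 0.05. Adjusted p-values are edgeR's unless another tool is named. CPM use TMM-scaled library sizes. Where a group held 1 to 3 reads, the ratio of reads is given with an exact 95% interval. The fit was tested on simulated data with changes set in the more abundant genes alone. That test does not cover genes with few reads.

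The genes named are the markers cxcl8a, ccl19a.1 and cxcr1, genes past the threshold, the 8 with the smallest p per comparison, the 3 with the highest mean CPM per role, and up to 4 of the signalling list per comparison. Others, such as ccl25a, ccl39.1, cxcr2 and the genes not tested, were chosen after their values were seen. The genes and lists were chosen with earlier results of these data known. Same-numbered libraries did not deviate together (r of -0.225 to 0.182), so numbers were not used as pairs. Alternatives were DESeq2 1.42.0, DESeq2 size factors, library totals, no filter, fits of the compared groups alone, a block for the replicate number, omission of the 4 mixed libraries (ovary or intestine transcripts), and omission of each library in turn. Intervals cover counting error only.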

Additional observations from a re-analysis of the deposited data

How the results depend on the processing

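The number of chemokine and receptor genes called is given here in the order TDCIPP against DMSO, DOX against DMSO, TDCIPP+DOX against DOX, TDCIPP+DOX against DMSO, TDCIPP+DOX against TDCIPP, and interaction. It was 0, 1, 4, 9, 1 and 0 in the fit reported, and unchanged with DESeq2 size factors in edgeR. Over all 19160 genes tested the calls were 8, 1315, 403, 2241, 801 and 5. With those size factors they were 8, 1236, 402, 2216, 784 and 5. DESeq2 in place of edgeR called 4, 2, 12, 17, 4 and 0, library totals 1, 2, 3, 30, 6 and 0, and no filter on low counts 1, 1, 2, 7, 1 and 0. Of all genes DESeq2 called 419, 2715, 2176, 3496, 1677 and 286. Library totals called 6, 5033, 142, 7271, 2724 and 4 of all genes. With no filter 17, 822, 143, 1788, 598 and 16 of 28600 genes were called. Fits of only the groups compared called 1, 0, 0, 10 and 3. Over all genes these fits called 11, 97, 0, 3084 and 1092. Without the 4 mixed libraries the counts were 0, 2, 1, 11, 1 and 0, and the cause was not tested. Of the 19171 genes tested then, 0, 684, 57, 2306, 844 and 0 were called. Without 1 library the counts of chemokine and receptor genes ran from 0 to 2, 1 to 2, 0 to 3, 3 to 10, 0 to 3 and 0 to 0. Those of all genes ran from 0 to 20, 209 to 1306, 0 to 476, 1017 to 3391, 127 to 1339 and 0 to 10. With the replicate block, whose numbers do not pair the libraries, 0, 1, 3, 6, 1 and 0 chemokine and receptor genes were called. Of all genes 13, 986, 256, 2060, 727 and 3 were called with it. For the signalling list DESeq2 called 1, 7, 7, 10, 1 and 1 against 0, 3, 2, 6, 0 and 0.

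Under library totals the median over all genes shifted from 0.02 to 0.39, from 0.12 to 0.83, from -0.08 to 0.23, from 0.1 to 1.11 and from -0.01 to 0.64 on the log2 scale. Of 952 alternative values for single genes, 817 kept direction and side of the threshold, 100 lost and 33 gained a call, and 2 reversed. The 2 were DOX against DMSO without DOX replicate 2. Without 1 library that log2 fold change ran from -0.089 to 0.732 for cxcl8a and from -0.219 to 0.54 for ccl19a.1, never called. The median of the interaction over the 56 genes was 0.64, and -0.04 without the 4 mixed libraries. Genes under about 10 reads per library have wide counting error.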
